A study of Homo sapiens with 4 samples.

Results

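The oxygen-sensing pathway built around the hypoxia-inducible factors (HIF) was followed through 10 member genes in K562 cells with and without hemin. The members were chosen by name for their roles in the pathway, and all 10 were found among the 61498 genes of the deposited tables. They are the HIF subunits HIF1A, EPAS1 and ARNT, the prolyl hydroxylases EGLN1, EGLN2 and EGLN3, the recognition subunit VHL of the ubiquitin ligase that removes HIF, and the target genes VEGFA, ADM and BNIP3. The rule for choosing them used no measured value, but earlier results of these data were known at that time.

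K562 is an erythroleukemia cell line that makes embryonic and fetal globins and can be pushed towards the erythroid fate with hemin. Poly(A)+ RNA was sequenced from 2 untreated libraries and from 2 libraries of cells kept with 50 µM hemin for 108 h, to learn how gene expression changes in induced erythroid differentiation. Both groups are the same cell line with no genetic change named, and the labels name no difference in oxygen between them. The labels do not say whether replicates were grown as separate cultures, so p-values measure only the spread between these libraries. The libraries held 7455447 to 8241534 expected counts, and 14458 genes passed the filter on low counts. The 8 erythroid markers examined were all detected, with summed levels of 5120 to 5350 TPM (transcript levels corrected for length and scaled to a common total) in untreated and 6050 to 6520 TPM in hemin-treated cells. Lymphoid markers summed to at most 1.62 TPM and monocytic markers to at most 0.74 TPM in any library, and megakaryocytic markers to at most 5.35 TPM. The epithelial marker EPCAM stood at 42.35 and 44.68 TPM untreated and 49.22 and 42.96 TPM with hemin, and its part in the results was not tested. The embryonic globin HBE1 rose after hemin by 0.41 ± 0.04 (log2 fold change ± SE, edgeR adjusted p = 0.000445).

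HIF is a pair of proteins, an oxygen-regulated alpha subunit (HIF1A or EPAS1) and the stable partner ARNT. When oxygen is present, the EGLN prolyl hydroxylases, which need iron and 2-oxoglutarate, hydroxylate the alpha subunit, and VHL then binds it and directs it to the proteasome. When oxygen is short, the alpha subunit persists, enters the nucleus and binds short hypoxia response elements near genes for blood vessel growth, glycolysis, iron handling and mitochondrial turnover. Much of this control acts on protein, which RNA-seq does not measure. In the erythroid lineage the pathway is best known for controlling erythropoietin and genes of iron uptake.

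Among the members, VEGFA, the main growth factor for blood vessels, was lower after hemin, and none of the others passed the test in either direction. Of the 9 members with enough counts to be tested, 0 were called higher and 1 lower at an adjusted p below 0.05. Over all genes tested, 7.0% were called higher and 7.14% lower, so 1 of 9 members is close to the background. At an unadjusted p below 0.05, 1 member was higher (EGLN2) and 3 were lower (VEGFA, EGLN3 and BNIP3), where the background was 14.8% and 14.6% of all genes. DESeq2 also called 0 members higher and 1 lower, VEGFA, where it called 4.07% of all genes higher and 3.49% lower. On CPM, counts scaled for library size and composition, 2 members had both hemin libraries above the untreated ones and 4 had both below, where the shares over all genes tested were 28.1% and 29.3%. The median log2 fold change was -0.051 over the tested members and -0.00481 over all genes tested.

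**Figure D1:**
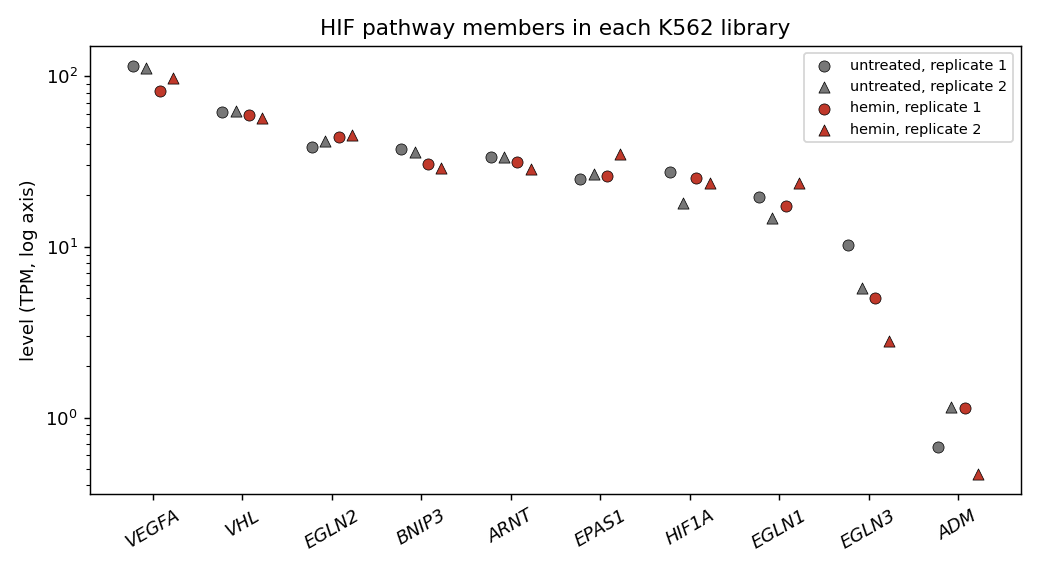
Level of each member in TPM (log axis) in each of the 4 libraries; circles are replicate 1 and triangles replicate 2, grey untreated and red hemin. VEGFA lies highest in every library, EGLN3 and ADM lie lowest, and the red symbols of VEGFA lie below both grey ones.

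The order of the levels was set by large differences between genes and changed little with hemin. TPM, which divides by transcript length, allows levels of different genes to be compared. In untreated cells VEGFA was highest at 112.9 ± 1.68 TPM (mean ± SD, n = 2), followed by VHL at 61.92 ± 0.863, EGLN2 (38.4 and 41.6 TPM), BNIP3 at 36.7 ± 1.16 and ARNT at 33.47 ± 0.0495 TPM. EPAS1 at 25.88 ± 1.25, HIF1A at 22.77 ± 6.51 and EGLN1 at 17.12 ± 3.44 TPM came next, and neighbours among these 3 did not differ beyond their spread. EGLN3 at 7.975 ± 3.22 and ADM at 0.91 ± 0.339 TPM closed the order.

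With hemin, VEGFA (89.43 ± 11.3 TPM), VHL (57.84 ± 1.75) and EGLN2 (44.58 ± 0.976) kept the first places. EPAS1 at 30.41 ± 6.36, ARNT (31.53 and 28.47 TPM) and BNIP3 at 29.82 ± 1.11 TPM had overlapping ranges between neighbours, as did HIF1A at 24.41 ± 1.12 and EGLN1 at 20.52 ± 4.45 TPM. EGLN3 at 3.91 ± 1.54 and ADM at 0.8 ± 0.467 TPM were again last.

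Promoter sequences show where a HIF-binding element could be read in the letters next to the members. HIF binds a short core, and the 250 bases before each RefSeq gene start (GRCh38.p14) were searched for ACGTG and GCGTG on both strands. A promoter entry was found for 8 of the 10 members, not for VHL and VEGFA. At least one core was present in 6 of these 8 (HIF1A, EPAS1, EGLN1, EGLN2, ADM and BNIP3) and in neither ARNT nor EGLN3. The same cores were present in 47.4% of 27305 gene symbols of the promoter table and, counted by entry, in 43.2% of its 35116 entries. HIF1A and EGLN2 have a further entry each without a core. Windows are shown for EGLN1 and EGLN2, enzymes that read oxygen, and for ADM and BNIP3, targets of HIF, so that the cores can be compared between both roles. Each is 30 bases long, read 5′ to 3′ on the gene's strand, and the cores, or their reverse complements, are in capitals.
EGLN1 (chr1:231422288-231422317, minus strand): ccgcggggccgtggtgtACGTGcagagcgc
EGLN2 (chr19:40799130-40799159, plus strand): gcggggcgcggtCACGTGcccaccgggcga
ADM (chr11:10304960-10304989, plus strand): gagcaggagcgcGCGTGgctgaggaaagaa
BNIP3 (chr10:131982040-131982069, minus strand): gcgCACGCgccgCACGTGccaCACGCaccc

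BNIP3 was the member with the most cores, 6 in 250 bases, and its upstream stretch (chr10:131981924-131982173, minus strand) is shown whole because the cores lie in a cluster. In the EGLN2 and BNIP3 windows the palindrome CACGTG holds a core on each strand, so it counts as 2 overlapping cores. A match is a description of the letters and says nothing of whether HIF was bound in these cells. The gene spans printed below come from GENCODE, whose starts can differ from those of RefSeq. By those spans the EGLN2 window and part of the BNIP3 upstream stretch lie inside the gene.
BNIP3 upstream: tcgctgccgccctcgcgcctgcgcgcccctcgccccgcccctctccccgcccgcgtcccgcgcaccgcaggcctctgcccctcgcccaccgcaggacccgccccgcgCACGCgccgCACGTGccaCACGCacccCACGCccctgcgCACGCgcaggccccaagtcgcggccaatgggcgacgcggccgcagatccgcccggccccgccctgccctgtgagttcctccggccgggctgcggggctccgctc

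The genes of the HIF subunits did not pass the test. HIF1A (ENSG00000100644, chr14:61695513-61748259, plus strand), the widely expressed alpha subunit, had 335.8 and 298.04 expected counts in untreated and 292.41 and 370.71 in hemin-treated cells. The groups overlapped, and the log2 fold change was 0.06 ± 0.09 (adjusted p = 0.746, 95% interval -0.15 to 0.26). Without hemin replicate 2 it was -0.07, so its direction rests on that library. In TPM the same libraries gave 27.37, 18.17, 25.2 and 23.61. The mean transcript length that RSEM assigned to HIF1A was 2234.66, 3078.31, 2197.13 and 2694.61 bases in the same order, so the lowest TPM stood beside the greatest length. A sense lncRNA, ENSG00000258964, shares 148 exon bases with HIF1A and held 11.85 to 17.27 expected counts.

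EPAS1 (ENSG00000116016, chr2:46293667-46386697, plus strand) encodes the second alpha subunit, HIF-2 alpha, known for its part in the control of erythropoietin. It had 506 and 532 expected counts without hemin and 510 and 596 with hemin. The groups overlapped, and the log2 fold change was 0.08 ± 0.07 (adjusted p = 0.506, 95% interval -0.08 to 0.25). EPAS1 and HIF1A stood at similar levels, with EPAS1 to HIF1A ratios of TPM of 0.913 and 1.47 untreated and 1.03 and 1.48 with hemin. The ratios differed more between replicates than between groups.

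ARNT (ENSG00000143437, chr1:150809713-150876708, minus strand), the partner of both alpha subunits, had 633 and 542 expected counts untreated and 519 and 570 with hemin. In CPM both hemin libraries (70.0 and 70.7 CPM) lay below both untreated ones (80.0 and 72.4 CPM). The log2 fold change of -0.12 ± 0.07 missed the threshold (adjusted p = 0.288, 95% interval -0.27 to 0.03). The other subunits were scarce: HIF3A, a further alpha subunit, had 4 to 6 expected counts per library and ARNT2, a partner known from neurons, had 0 or 1.

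The hydroxylase EGLN1 (ENSG00000135766, chr1:231363751-231422287, minus strand), regarded as the main oxygen sensor of the family, had 315.03 and 314.69 expected counts untreated and 321.15 and 377.77 with hemin. Both hemin libraries lay above the untreated ones in CPM, by little in replicate 1. Its log2 fold change of 0.14 ± 0.08 missed the threshold (adjusted p = 0.281, 95% interval -0.04 to 0.32). A protein-coding gene model on the same strand that shares 3004 exon bases with EGLN1, ENSG00000287856, held 0 counts in every library, and the only EGLN1 pseudogene held at most 1.35% of the member's count.

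EGLN2 (ENSG00000269858, chr19:40798996-40808434, plus strand), which is known to be induced by estrogen rather than by low oxygen, had 408.44 and 420.33 expected counts untreated and 467.44 and 487.08 with hemin. Both hemin libraries (63.0 and 60.4 CPM) lay above both untreated ones (51.6 and 56.1 CPM). The log2 fold change was 0.20 ± 0.07, with an unadjusted p of 0.0215 and an adjusted p of 0.0985. On the posterior mean counts of RSEM the adjusted p was 0.0445, a call that no other setting gave, where 9.22% of all genes were called higher. EGLN2 shares 2012 exon bases with the read-through gene RAB4B-EGLN2, which was assigned 91.64, 6.64, 29.04 and 52.86 expected counts in the 2 untreated and 2 hemin libraries, with posterior SDs of 21.4 to 35.87 counts. The division of reads between both genes is thus uncertain. Adding them up gave 500.08 and 426.97 counts untreated and 496.48 and 539.94 with hemin. In CPM the sums were 63.2 and 57.0 untreated and 66.9 and 66.9 with hemin, so the groups did not overlap, and the log2 fold change was 0.15 (adjusted p = 0.183).

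EGLN3 (ENSG00000129521, chr14:33924227-34462774, minus strand), the hydroxylase that is itself a classical target of HIF, showed the lowest fitted difference of the 9 tested members. It had 97 and 62 expected counts untreated and 57 and 35 with hemin. In CPM both hemin libraries (7.69 and 4.34) lay below both untreated ones (12.3 and 8.28), and the libraries of each group also stood apart from each other. The log2 fold change of -0.79 ± 0.29 (95% interval -1.43 to -0.14) had an unadjusted p of 0.0221 and an adjusted p of 0.10 in the edgeR test. The call depended on the setting. The adjusted p was 0.00686 with no filter on low counts, 0.0356 on posterior mean counts, 0.0389 with the replicate number as a block and 0.20 with DESeq2. The share of all genes called lower was 4.07% with no filter, 9.29% on posterior mean counts and 6.13% with the block. Leaving out one library moved the log2 fold change from -0.42 (without hemin replicate 2) to -1.24 (without hemin replicate 1), and in the latter case the adjusted p was 0.0086, with 5.96% of all genes called lower. It was -0.47 without untreated replicate 1. In the main test EGLN3 was thus not shown to differ. SPTSSA, a gene whose span overlaps that of EGLN3 without sharing exon bases, had 125 to 157 expected counts.

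Among the EGLN genes the division of the level was uneven. EGLN2 made up 56.3% and 67.1% of the summed TPM of the EGLN genes in untreated and 66.2% and 63.1% in hemin-treated cells. EGLN3 made up 15.0% and 9.2% untreated and 7.55% and 3.93% with hemin, so the hemin shares lay below the untreated ones. The share of EGLN1, 28.7% and 23.7% against 26.2% and 33.0%, overlapped between groups. HIF1AN, the asparagine hydroxylase that blocks the binding of coactivators to HIF, had 389 and 345 expected counts untreated and 406 and 469.64 with hemin (log2 fold change 0.25 ± 0.07, adjusted p = 0.0543).

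VHL (ENSG00000134086, chr3:10141778-10153667, plus strand) had the smallest fitted difference of the tested members. It had 1122.45 and 1114.53 expected counts untreated and 1067.39 and 1103.5 with hemin. The CPM ranges overlapped, and the log2 fold change was -0.05 ± 0.05 (adjusted p = 0.563, 95% interval -0.17 to 0.06). The antisense lncRNA ENSG00000287086 shares 1173 exon bases with VHL and was assigned 41.27, 0, 46.46 and 36.26 counts. Counting by strand was not stated, so reads in the shared bases cannot be given to either gene with certainty. The posterior SD of the VHL count in RSEM was at most 1.95% of that count. The other subunits of the ligase, ELOB, ELOC, CUL2 and RBX1, were all tested and 0 of 4 passed, with fitted log2 fold changes from -0.12 (ELOC) to 0.05 (RBX1).

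**Figure D2:**
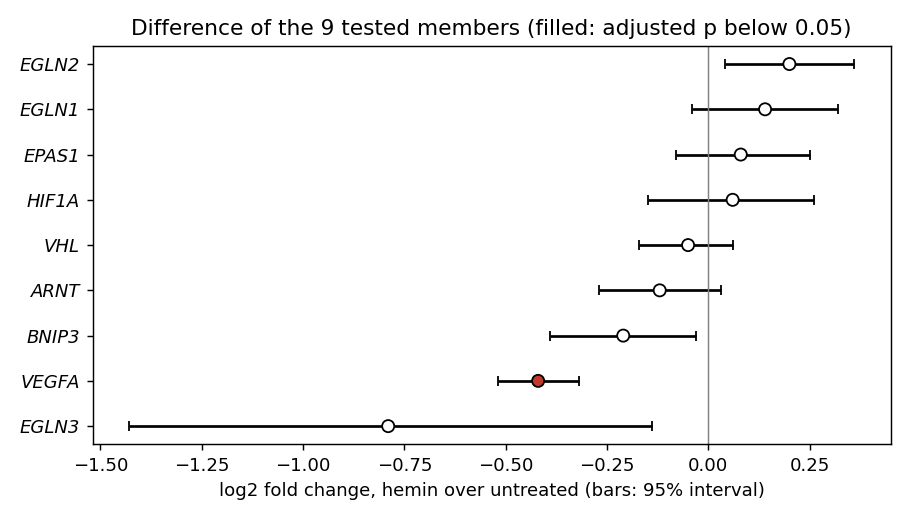
Log2 fold change (hemin over untreated) of the 9 tested members with 95% intervals from the edgeR fit; a filled symbol marks an adjusted p below 0.05. The interval of VEGFA runs from -0.52 to -0.32, and the widest interval, that of EGLN3, runs from -1.43 to -0.14.

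VEGFA (ENSG00000112715, chr6:43770184-43786487, plus strand), a direct HIF target, was the member with the highest counts. It had 1558.59 and 1504.11 expected counts untreated and 1082.9 and 1225.45 with hemin. Both hemin libraries (146.0 and 152.0 CPM) lay below both untreated ones (197.0 and 201.0 CPM). VEGFA fell by 25.1%, a log2 fold change of -0.42 ± 0.05 (95% interval -0.52 to -0.32, edgeR adjusted p = 0.000726). In TPM the values were 114.09, 111.72, 81.43 and 97.43, and the log2 fold change on log2(TPM + 1) in limma was -0.34 with an adjusted p of 0.167. That test called few genes at all: 0.228% of all genes were called lower by it. In bulk RNA, fewer cells that make a transcript and less of it per cell cannot be told apart. The antisense lncRNA ENSG00000272114 shares 188 exon bases with VEGFA and held 7.55 to 15.89 expected counts.

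VEGFB, a VEGF ligand that is not known as a hypoxia gene, had 341 and 314 expected counts untreated and 299 and 367 with hemin, with a log2 fold change of 0.02 ± 0.08 (adjusted p = 0.933). The VEGFA to VEGFB ratio of TPM was 2.6 and 2.78 untreated and 1.92 and 1.99 with hemin, so the hemin libraries were lower in both cases. The 3 genes outside the lists whose centred log2 CPM over the 4 libraries was nearest to that of VEGFA, among 985 genes of similar level, were TGFB1, ASS1 and ANKZF1, at root mean square differences of 0.0282, 0.029 and 0.03. Their log2 fold changes were -0.43, -0.45 and -0.38. They share these libraries with VEGFA, so the likeness is a description.

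BNIP3 (ENSG00000176171, chr10:131967684-131981967, minus strand), a mitochondrial protein of the BCL2 group that marks mitochondria for removal, had 280.8 and 271.88 expected counts untreated and 230.34 and 249.96 with hemin. Both hemin libraries (31.0 and 31.0 CPM) lay below both untreated ones (35.5 and 36.3 CPM). The log2 fold change of -0.21 ± 0.08 (95% interval -0.39 to -0.03) had an unadjusted p of 0.027 and an adjusted p of 0.114, so it was not called. The annotation lists 39 pseudogenes of BNIP3, of which 13 held any count, and their sum reached at most 12.0% of the count of BNIP3 in a library, so counts of BNIP3 are less certain than those of VEGFA. Its relative BNIP3L, also called NIX, which removes mitochondria in maturing red cells, had a log2 fold change of -0.05 ± 0.06 (adjusted p = 0.676).

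ADM (ENSG00000148926, chr11:10305073-10307397, plus strand), the vessel-widening peptide adrenomedullin and one of the strongest HIF targets known, was nearly silent. It had 4 and 9 expected counts untreated and 5 and 4 with hemin, too few for the test. Pooled over the group, 13 counts stood against 9, a ratio of 0.67 scaled for depth with an exact interval of 0.253 to 1.7. The interval covers counting error only, and no difference was detectable at this depth.

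Beyond the members, 82 further genes of the pathway were listed by role, and 65 could be tested. Of these 65, 8 were called higher (12.3%) and 13 lower, where 7.0% and 7.14% of all genes were called. Leaving out untreated replicate 1 gave 3 higher and 8 lower, where 3.12% and 3.37% of all genes were called. The median log2 fold change of the 65 was -0.0357. Altogether 22 genes were called with VEGFA included, and 12 of them were called in every alternative based on counts.

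**Figure D3:**
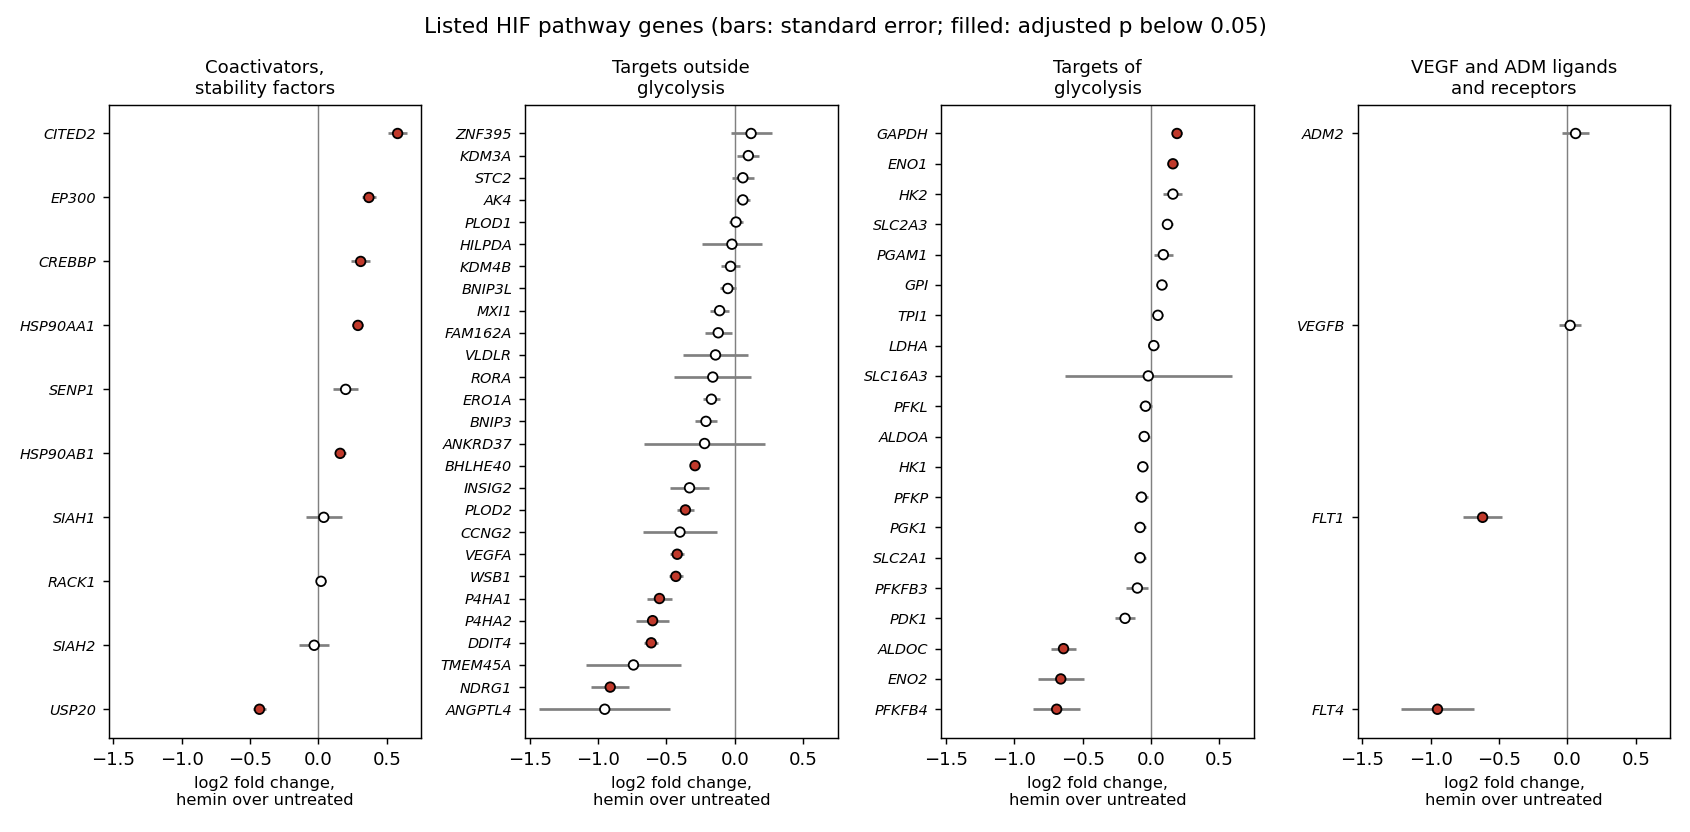
Log2 fold change (hemin over untreated, bars are standard errors) of tested genes in 4 of the pathway lists; filled symbols have an edgeR adjusted p below 0.05. CITED2, EP300, CREBBP, HSP90AA1 and HSP90AB1 lie right of 0, and 8 targets outside glycolysis, VEGFA among them, lie left of it and are filled.

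Of the coactivators and stability factors of HIF, 5 of 10 tested were called higher and 1 lower, where 7.0% and 7.14% of all genes were called. CITED2, which competes with HIF for its coactivators and is itself induced by it, had 394 and 333 expected counts untreated and 528 and 567 with hemin. It rose by 0.58 ± 0.07 on the log2 scale (adjusted p = 0.00135). EP300, an acetyltransferase that serves as coactivator, had 843 and 762.04 counts untreated and 968 and 1113 with hemin, and rose by 0.37 ± 0.05 (adjusted p = 0.00333).

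USP20, a deubiquitinase known to stabilise HIF1A, had 1117.18 and 1130.04 counts untreated and 791 and 888.11 with hemin, and fell by 0.43 on the log2 scale (adjusted p = 0.00133). HSP90AA1, a chaperone of HIF1A, rose by 0.29 ± 0.04 (adjusted p = 0.00206), and HSP90AB1 and CREBBP, the relative of EP300, were called higher too. CREBBP missed the threshold with DESeq2 and without untreated replicate 1, untreated replicate 2 or hemin replicate 2, and HSP90AB1 missed it without untreated replicate 1 and with the replicate number as a block (adjusted p = 0.0507). The chaperones have processed pseudogenes that could share reads with them.

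Of the targets outside glycolysis more were called lower than higher. Without the members, 31 were listed and 26 tested, of which 7 (26.9%) were called lower and 1 (3.85%) higher. Their median log2 fold change was -0.166. Over all genes tested, 7.14% were called lower and 7.0% higher. DDIT4, an inhibitor of mTORC1 signalling, had 2686 and 2706 counts untreated and 1723 and 1843 with hemin. It fell by 0.61 on the log2 scale (SE 0.05, adjusted p = 0.000142), and it was the only gene of the 22 that was also called in limma on the TPM scale. WSB1, an adaptor of a ubiquitin ligase, had 2091 and 1992 counts untreated and 1379.98 and 1665.84 with hemin, a log2 fold change of -0.43 ± 0.05 (adjusted p = 0.00124).

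BHLHE40, a transcriptional repressor, had 2050.9 and 1930.38 counts untreated and 1538 and 1740.98 with hemin, a log2 fold change of -0.29 ± 0.04 (adjusted p = 0.00345). NDRG1, a stress-response gene, P4HA1 and P4HA2, subunits of collagen prolyl hydroxylase, and PLOD2, a lysyl hydroxylase of collagen, were called lower as well, P4HA2 not without untreated replicate 1. The lowest fitted difference of the list, -0.95 for ANGPTL4, an inhibitor of lipoprotein lipase, was not called (13, 18, 10 and 6 counts, adjusted p = 0.226).

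Several well-known hypoxia genes were close to absent. CA9, the carbonic anhydrase often used as a hypoxia marker, had 2 and 2 counts untreated and 0 and 0 with hemin. EPO, erythropoietin, had 0 counts in 3 libraries and 3 in hemin replicate 2. CXCR4 had 0 counts in every library, which allows up to 3 counts in each.

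The promoter search was extended to the listed targets. A core was present within 250 bases upstream in 35 of the 40 tested targets with an entry (87.5%). Of the targets called lower, 9 had an entry and 8 of these had a core (88.9%), while P4HA2 had none. NDRG1, also called lower, had no entry and was not searched. The shares were alike in called and tested targets, and the list was made of known HIF targets. Windows are shown for some of the targets called lower, each with an ACGTG core on either strand, to be read beside those of EGLN1 and BNIP3 above. PLOD2 and BHLHE40, also called lower, had such a core too and are not shown, and PFKFB4 had only GCGTG.
DDIT4 (chr10:72273787-72273816, plus strand): agaacgttgcttACGTGcgcccggagtcca
P4HA1 (chr10:73096935-73096964, minus strand): tgtgatcgagctCACGTagcgagggctgca
WSB1 (chr17:27294044-27294073, plus strand): gggctgtgacgtCACGTGgccgcgcccctg
ALDOC (chr17:28577116-28577145, minus strand): aagtgcccggCACGTGgtaaagggattgtg
ENO2 (chr12:6914450-6914479, plus strand): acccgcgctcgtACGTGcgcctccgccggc

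The glycolytic targets did not move one way. Of 21 listed, 20 were tested, 3 were called lower and 2 higher, where 7.14% and 7.0% of all genes were called. The median log2 fold change of the 20 was -0.0427. ALDOC, the brain-type aldolase, had 246.08 and 234.08 counts untreated and 145 and 165 with hemin, a log2 fold change of -0.64 ± 0.09 (adjusted p = 0.00297). GAPDH rose by 0.19 ± 0.04 (adjusted p = 0.0148), although it was lost without untreated replicate 1. PFKFB4, a regulator of glycolysis that was the lowest of the list, had 98 and 82 counts untreated and 56 and 56 with hemin, a log2 fold change of -0.69 ± 0.17 (adjusted p = 0.028).

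The neuron-type enolase ENO2 was called lower and the general enolase ENO1 higher. ENO1 missed the threshold when scaled by library size only, with the replicate block (adjusted p = 0.067) and without untreated replicate 1 or hemin replicate 1. ENO2 and PFKFB4 missed it with DESeq2 and without untreated replicate 1, untreated replicate 2 or hemin replicate 2. The widespread glycolytic genes LDHA, with a log2 fold change of 0.02 ± 0.04 (adjusted p = 0.771), and PGK1, at -0.08 ± 0.04 (adjusted p = 0.248), did not pass. Some of these genes have many processed pseudogenes that could take reads from them.

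Receptors for the ligands VEGFA and ADM were mostly undetected. Of 13 listed ligand and receptor genes, 4 could be tested, and KDR, the main VEGFA receptor of endothelium, NRP2, RAMP1, RAMP2 and RAMP3 held 0 counts in every library. FLT1, a receptor for VEGFA and VEGFB, had 197 and 164 counts untreated and 128 and 107 with hemin, a log2 fold change of -0.62 ± 0.14 (adjusted p = 0.0201). FLT4, a receptor for VEGFC, had 39.69 and 43 counts untreated and 20 and 23 with hemin, a log2 fold change of -0.95 ± 0.27 (adjusted p = 0.0442). Both calls were lost without untreated replicate 1, that of FLT1 also without hemin replicate 2, and that of FLT4 whichever library was left out, with DESeq2 (adjusted p = 0.245) and with the replicate block (adjusted p = 0.0709). ADM2, a relative of ADM, had the highest fitted difference of the list, 0.06 ± 0.10.

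**Figure D4:**
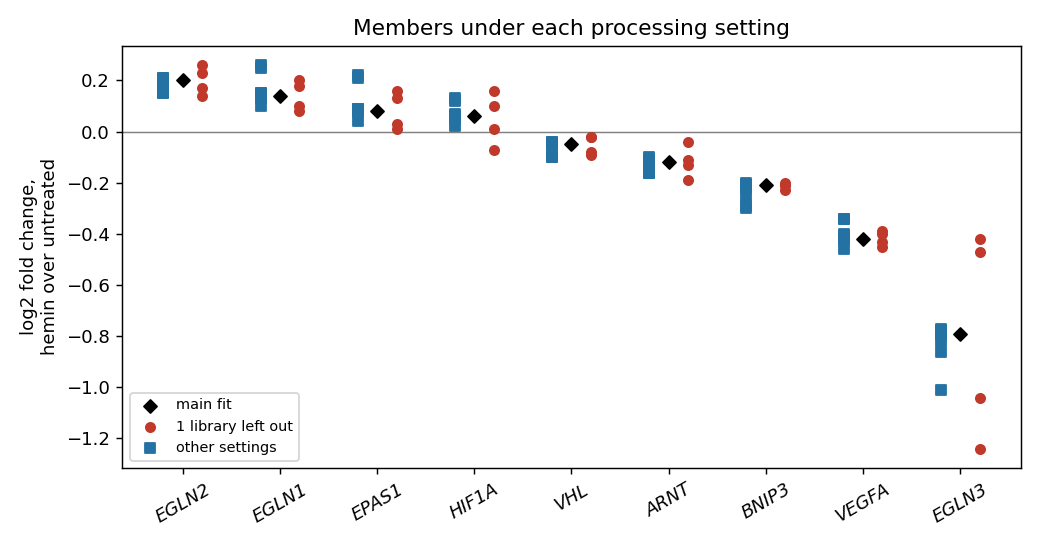
Log2 fold change (hemin over untreated) of each tested member in the main fit (diamonds), with 1 library left out (circles) and under the other settings (squares). VEGFA stays between -0.46 and -0.34, EGLN3 spreads from -1.24 to -0.42, and HIF1A crosses 0.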

How the data were processed

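The authors trimmed single 50-base reads with Trimmomatic 0.39 and quantified genes of Ensembl 106 (GRCh38) with RSEM 1.3.1 over STAR 2.7.5c, one library at a time. The deposited tables give expected counts per gene, which are estimated counts that need not be whole, and TPM, both made by the authors with no strand setting stated. FPKM tables were not used. Expected counts were rounded and tested with edgeR 4.0.16 (filterByExpr, TMM, quasi-likelihood, Benjamini-Hochberg over 14458 genes, threshold 0.05) on the condition alone in R 4.3.3. The procedure was also run on simulated counts with a common spread for all genes and changes in well-counted genes only. That run does not cover low counts or a spread that differs between genes. Alternatives were DESeq2 1.42.0, limma 3.58.1 on log2(TPM + 1) and log2(TPM + 0.1), other scalings and filters, posterior mean counts, a replicate block and each library left out.

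Members, gene lists and tests were chosen with earlier results of these data known. Named genes are the members, every list gene past the threshold (3 of smallest p per list with values), each list's extremes, list genes at 0 counts and genes that overlap a member. HIF3A, ARNT2, BNIP3L, VEGFB, CA9, EPO, LDHA and PGK1 were named after their values were seen. Gene positions come from GENCODE 44, promoters from RefSeq. One listed target that was counted among the calls is not reported here by name and is not drawn.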

Additional observations from a re-analysis of the deposited data

How the results depend on the processing

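VHL, EPAS1, ARNT, EGLN1 and BNIP3 kept their direction and stayed uncalled in all 14 alternatives. VEGFA was called in the 12 based on counts. For HIF1A the log2 fold change ran from -0.07 (without hemin replicate 2) to 0.16 with one library left out. With the main test calling 0 members higher and 1 lower, posterior mean counts gave 1 higher (EGLN2) and 2 lower, no filter 2 lower, and limma on log2(TPM + 1) and on log2(TPM + 0.1) 0 lower. Leaving out one library gave 1 to 2 members lower, 3 to 7 other pathway genes higher and 8 to 12 lower, against 8 and 13. The limma fits gave 0 higher and 1 lower of the other pathway genes, against 8 and 13 in the main test. Over all genes, limma on log2(TPM + 1) called 0.0968% higher and 0.228% lower. On log2(TPM + 0.1) it called 0.104% higher and 0.235% lower. The correlation of same-numbered deviations was 0.00754, and the labels do not say that a number marks a shared day or culture, so the libraries were not treated as pairs. With the replicate block 2 members were lower, and 6 pathway genes were higher and 12 lower. That setting called 5.91% of all genes higher and 6.13% lower. Scaling by library size alone moved the median of all genes to -0.0434. Adding RAB4B-EGLN2 to EGLN2 was chosen after the data were seen. The 2 libraries a group and low counts (ADM, EGLN3) limit what can be detected, and the cause of the differences between settings was not tested.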
